A study of Homo sapiens with 24 samples.

Results

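The ephrin, semaphorin and plexin guidance families are taken here as the 53 genes, of 58735 entries in the count files, whose symbols name an Eph receptor, an ephrin, a semaphorin of classes 3 to 7, a plexin or a neuropilin. They are 14 Eph receptors, 8 ephrins, 20 semaphorins, 9 plexins and 2 neuropilins. The rule goes by symbol alone. All 53 are protein coding in the GENCODE annotation, release 29.

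Ephrins are ligands held on the surface of one cell and read by Eph receptor tyrosine kinases on the next: ephrins of class A hang on a lipid anchor and those of class B cross the membrane. Semaphorins are secreted (class 3), membrane-spanning (classes 4, 5 and 6) or lipid-anchored (SEMA7A) cues. Plexins are their main receptors and switch off small GTPases inside the cell, and class 3 semaphorins mostly reach plexins through the co-receptors NRP1 and NRP2. Both systems steer growing axons and vessels, and in breast epithelium and its tumours they act on cell sorting, adhesion and movement.

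Messenger RNA was sequenced from HCC1395, HCC38 and HCC1937, established human lines of triple-negative breast cancer. In HCC1395 the groups were EZH2i+AKTi (5 uM tazemetostat plus 5 uM ipatasertib), EZH2i (5 uM tazemetostat alone), AKTi (5 uM ipatasertib alone) and the vehicle DMSO. In HCC38 and in HCC1937 the groups were EZH2i+AKTi, at the same doses, and DMSO. Each of the 8 groups held 3 libraries, named A, B and C. Tazemetostat blocks EZH2, the enzyme that places the repressive mark on lysine 27 of histone H3, and ipatasertib blocks the AKT kinases of the PI3K pathway, which among other things keep FOXO transcription factors out of the nucleus. The only timeline in the labels is for another line and another assay, so how long these cells were treated is unclear. Each line is a single culture model, and nothing says that the replicates were separate cultures, so p-values measure the spread between these samples only.

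Library totals ran from 33469927 to 51815656 counts, and the 53 genes together took 0.249 to 0.339% of them as group means. The mitochondrial share of counts averaged 6.20% ± 0.08 with both inhibitors, 4.74% ± 0.39 with EZH2i and 5.55% ± 0.19 with AKTi, against 3.85% ± 0.08 with DMSO in HCC1395 (SD, n = 3 each), and 7.45% ± 0.96 with EZH2i+AKTi against 5.77% ± 0.84 with DMSO in HCC1937. In HCC38 library C of EZH2i+AKTi stood apart, with 7.77% against 4.76 and 5.19% in libraries A and B. Most log2 changes in HCC38 are therefore given with and without it, while family counts, summed levels and the split by level include it. The mitochondrial shares move with treatment in HCC1395 and HCC1937. In HCC38 the DMSO libraries had 5.82, 5.08 and 5.78%, so of the treated libraries only C lay above them all. The part of these shares in the results was not tested. Of 8 epithelial and mammary markers, 6 averaged at least 1 CPM in HCC1395 with EZH2i+AKTi, 6 with EZH2i, 5 with AKTi and 5 with DMSO, 7 in HCC38 with EZH2i+AKTi and 6 with DMSO, and all 8 in both groups of HCC1937. The summed level of these 8 was 666 to 779 CPM with EZH2i+AKTi, 674 to 715 CPM with EZH2i and 460 to 494 CPM with AKTi, against 494 to 514 CPM with DMSO in HCC1395. Most of that was KRT14, at 468 to 543 CPM with EZH2i+AKTi, 567 to 594 CPM with EZH2i, 315 to 336 CPM with AKTi and 423 to 444 CPM with DMSO. The markers did not move together. KRT8 had 114 to 134 CPM with EZH2i+AKTi and 90.1 to 104 CPM with AKTi, against 29.5 to 35.8 CPM with DMSO. KRT18 had 72.9 to 89.0 and 49.2 to 49.6 CPM, against 28.7 to 29.8 CPM, while KRT5 was lower with AKTi, like KRT14. The sum was 2628 to 3192 CPM with EZH2i+AKTi against 3318 to 3635 CPM with DMSO in HCC38, and 5147 to 5831 CPM with EZH2i+AKTi against 6160 to 6649 CPM with DMSO in HCC1937. In HCC38 KRT18 was higher with EZH2i+AKTi, at 637 to 811 against 522 to 590 CPM, while KRT8 and KRT19 were lower. CDH1, the epithelial cadherin, was between 0.03 and 1.02 CPM in every HCC1395 library, and at 294 to 314 CPM with EZH2i+AKTi against 651 to 726 CPM with DMSO in HCC1937. The oestrogen receptor gene ESR1, which triple-negative tumours lack as a protein, was at 12.6 to 13.6 CPM in HCC1937 with EZH2i+AKTi and at 20.4 to 21.4 CPM with DMSO. Summed levels of 16 markers of fibroblasts, endothelium, leukocytes and nerve or glia were 59.6 to 67.0 CPM with EZH2i+AKTi, 99.4 to 105 CPM with EZH2i and 61.9 to 65.7 CPM with AKTi, against 66.3 to 71.7 CPM with DMSO in HCC1395. The same sums were 40.2 to 43.3 CPM with EZH2i+AKTi against 26.6 to 28.5 CPM with DMSO in HCC38. In HCC1937 they were 84.1 to 87.7 CPM with EZH2i+AKTi against 59.1 to 63.0 CPM with DMSO. A few genes set these sums, COL1A1 in HCC1395 and HCC38 and 3 genes in HCC1937. Those were CDH5 (31.6 to 34.8 against 12.7 to 15.9 CPM), PECAM1 (30.3 to 31.8 against 21.2 to 22.35 CPM) and COL1A1 (11.4 to 11.7 against 15.7 to 17.3 CPM). Between 1 and 4 of the 16 had no count in any library of a group, and the part of these markers in the results was not tested.

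Levels are CPM (library-size-scaled counts) with TMM factors over all 24 libraries, given for libraries A, B and C in that order or as mean ± SD with n = 3. Where genes are compared with each other the level is per kilobase of exon (CPM per kb). A log2 change of 1 is a 2-fold rise and carries the standard error of the fit. The adjusted p is that of edgeR's quasi-likelihood test with Benjamini-Hochberg adjustment over every gene tested in the fit, and a gene is said to rise or fall where it is under 0.05. In bulk RNA fewer cells with a transcript and less of it per cell cannot be told apart. The strand setting of the counting is not given in the sources used here: 25 of the 53 genes overlap another annotated gene on the other strand and 16 on the same strand, and reads of such pairs may be shared.

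Promoter sequences are shown for EFNA2, EFNA5, SEMA6C and EPHB6, which rose with EZH2i+AKTi in all 3 lines under every alternative run and for which the promoter table has an entry. Each runs 5′ to 3′ from 250 bases before to 50 bases after the transcript start that RefSeq annotates on GRCh38.p14. Capitals mark CG dinucleotides, the letters of CpG islands, where the EZH2 complex is known to bind.
EFNA2: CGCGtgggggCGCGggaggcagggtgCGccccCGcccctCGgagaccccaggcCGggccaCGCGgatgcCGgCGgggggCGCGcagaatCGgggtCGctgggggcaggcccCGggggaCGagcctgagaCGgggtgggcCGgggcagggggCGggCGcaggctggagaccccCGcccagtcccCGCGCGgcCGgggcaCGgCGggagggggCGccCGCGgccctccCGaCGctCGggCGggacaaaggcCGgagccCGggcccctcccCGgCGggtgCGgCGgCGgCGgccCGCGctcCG
EFNA5: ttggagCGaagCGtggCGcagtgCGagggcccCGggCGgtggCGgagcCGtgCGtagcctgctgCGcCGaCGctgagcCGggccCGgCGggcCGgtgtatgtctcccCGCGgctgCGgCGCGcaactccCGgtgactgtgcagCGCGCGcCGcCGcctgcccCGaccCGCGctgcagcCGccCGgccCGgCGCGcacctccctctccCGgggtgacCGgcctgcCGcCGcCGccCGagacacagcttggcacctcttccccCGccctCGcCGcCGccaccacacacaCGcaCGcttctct
SEMA6C: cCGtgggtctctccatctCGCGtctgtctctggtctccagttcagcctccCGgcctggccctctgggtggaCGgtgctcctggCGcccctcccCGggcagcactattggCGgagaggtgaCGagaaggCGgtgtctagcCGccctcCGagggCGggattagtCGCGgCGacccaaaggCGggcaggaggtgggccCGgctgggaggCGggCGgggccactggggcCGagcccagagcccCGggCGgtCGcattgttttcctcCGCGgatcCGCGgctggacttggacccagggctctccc
EPHB6: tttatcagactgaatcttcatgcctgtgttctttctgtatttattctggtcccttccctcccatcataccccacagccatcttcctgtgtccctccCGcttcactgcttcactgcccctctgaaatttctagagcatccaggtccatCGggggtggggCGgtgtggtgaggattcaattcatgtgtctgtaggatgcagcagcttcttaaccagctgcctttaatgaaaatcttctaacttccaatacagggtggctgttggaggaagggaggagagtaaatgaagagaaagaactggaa
The windows are chr19:1285623-1285922 (plus strand), chr5:107670888-107671187 (minus), chr1:151146582-151146881 (minus) and chr7:142862506-142862805 (plus). EFNA2 and EFNA5 each hold 47 CG dinucleotides and SEMA6C holds 28, while EPHB6 holds 3. The EPHB6 window lies inside the gene as GENCODE spans it, downstream of the outermost start, which is not shown. PLXNB2 and SEMA3B also rose in all 3 lines, but not under every alternative, and are not printed: the PLXNB2 window holds 14 CG dinucleotides and those of SEMA3B hold 9 to 32. The table has 74 promoters for 47 of the 53 genes, and EFNB3, EPHA10, NRP1, SEMA3A, SEMA6A and SEMA6B are not in it. Across the 74 the median was 22 CG dinucleotides, with a range of 1 to 54, against a median of 14 over all 35116 promoters. At least 15 were present in 51 of the 74, against 48.9% of all promoters. The letters GTAAACA, or TGTTTAC on the other strand, which match the core that FOXO factors bind, were found in 3 of the 74, those of SEMA3E, SEMA4B and SEMA5B, against 3.42% of all promoters. None of the 4 printed windows holds those letters on either strand, which says nothing about binding elsewhere.

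With DMSO the lines differed in which guidance genes were most abundant. Of the 53, 48 averaged at least 1 CPM in at least 1 of the 8 groups and 30 in every group. EPHA2, the receptor for ephrin-A1, was the most abundant member per kilobase in HCC38 and HCC1937 DMSO cells, at 270.0 and 87.7 CPM per kb, followed by PLXNB2, a receptor for class 4 semaphorins, at 60.2 and 70.4 CPM per kb. In HCC1395 DMSO cells the secreted cue SEMA3C led at 49.1 CPM per kb and the membrane cue SEMA6B followed at 48.6 CPM per kb, with EPHB4, the receptor for ephrin-B2, at 43.2 and NRP1 at 42.1 CPM per kb. PLXNB2 and EPHA2 were not far below in HCC1395 DMSO cells, at 40.3 and 39.6 CPM per kb. SEMA3C and SEMA6B in HCC1395 were not tested against each other. The heat map of mean levels shows these differences between lines.

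**Figure D1:**
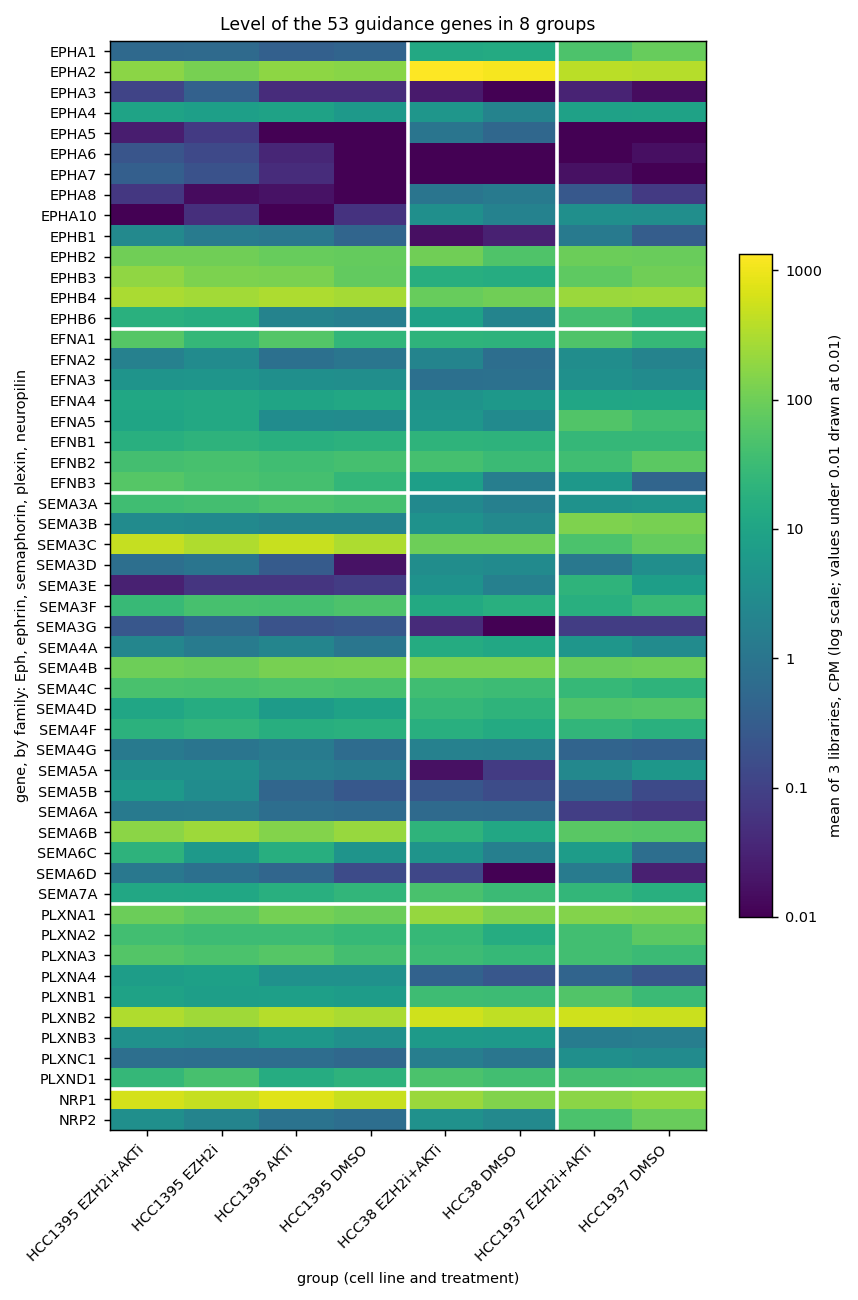
Mean level of each of the 53 guidance genes (rows, by family) in the 8 groups (columns), in CPM on a log colour scale, each cell being the mean of 3 libraries. EPHA2 reaches 1335 CPM in HCC38 EZH2i+AKTi, while EPHA5, EPHA6 and EPHA7 stay under 1 CPM in every group.

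Compared between lines in DMSO, 18 of the 51 members tested were higher and 24 lower in HCC38 than in HCC1395 (38.2% and 36.5% of all genes, 74.7% in all). In HCC1937 against HCC1395, 24 were higher and 17 lower (37.3% and 35.7% of all genes, 73.0% in all). In HCC38 against HCC1937, 13 were higher and 31 lower (35.6% and 36.2% of all genes, 71.9% in all). All 8 ephrins were called in that last comparison, 7 of them lower in HCC38. EFNA5 had 3.08, 2.84 and 2.57 CPM in HCC38 and 34.7, 36.8 and 38.2 CPM in HCC1937 (log2 change -3.69 ± 0.10, adjusted p = 5.28e-24), while EFNB3 was the exception, with 1.68, 1.5 and 1.5 CPM in HCC38 and 0.721, 0.286 and 0.375 CPM in HCC1937 (log2 change 1.78 ± 0.26, adjusted p = 1.56e-07). Ephrin-B3, the product of EFNB3, is a B-class ligand best known from the mouse spinal cord midline, and HCC1395 had far more of its transcript than either line, 25.1, 23.9 and 26.4 CPM. Against HCC1395, EFNB3 was lower in HCC38 by -4.01 ± 0.16 and in HCC1937 by -5.79 ± 0.23 on the log2 scale (adjusted p = 2.84e-20 and 1.25e-22).

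EPHA2 had 1108, 1104 and 1157 CPM in HCC38 DMSO libraries and 365, 358 and 370.1 CPM in those of HCC1937, against 159, 163 and 172 CPM in HCC1395. The 3 lines did not overlap, and the log2 difference was 2.77 ± 0.07 for HCC38 against HCC1395 and 1.15 ± 0.07 for HCC1937 against HCC1395 (adjusted p = 6.68e-24 and 3.74e-15). EPHA1, a receptor for class A ephrins, had 12.9, 14.4 and 12.6 CPM in HCC38 and 85.4, 85.1 and 81.8 CPM in HCC1937, against 0.323, 0.569 and 0.473 CPM in HCC1395, where it was under 1 CPM in every library. EPHB3, a B-class receptor, was the reverse in HCC38, with 15.2, 15.5 and 13.9 CPM against 78, 76.9 and 76.7 CPM in HCC1395 (log2 change -2.38 ± 0.06, adjusted p = 7.78e-24). EPHB6, whose kinase domain is inactive, had 22.4, 20.2 and 22.9 CPM in HCC1937 DMSO cells against 1.83, 1.93 and 1.2 CPM in HCC1395 (log2 change 3.72 ± 0.18, adjusted p = 3.52e-18), and 1.65, 2.12 and 2.45 CPM in HCC38, which overlapped HCC1395 (adjusted p = 0.156).

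The neuropilins split by line. NRP1, the co-receptor for SEMA3A, was highest in HCC1395, with 142, 132 and 147 CPM in HCC38 and 194, 222 and 228 CPM in HCC1937 DMSO libraries against 480.5, 494 and 480.1 CPM in HCC1395. NRP2, the co-receptor for SEMA3F, was under 1 CPM in HCC1395, 0.942, 0.654 and 0.584 CPM, but 81.5, 92.4 and 92.1 CPM in HCC1937 (log2 change 6.92 ± 0.18, adjusted p = 2.19e-26) and 2.6, 2.18 and 2.93 CPM in HCC38 (log2 change 1.82 ± 0.20, adjusted p = 4.93e-10). Their cues differed too: SEMA3A had 1.57, 1.86 and 1.81 CPM in HCC38 and 4.38, 4.87 and 4.75 CPM in HCC1937, against 41.5, 40.5 and 39.3 CPM in HCC1395 (log2 difference -4.54 ± 0.13 and -3.11 ± 0.10). SEMA3B, whose gene lies near SEMA3F on chromosome 3, had 121, 117 and 113 CPM in HCC1937 against 2.05, 2.16 and 2.0 CPM in HCC1395 (log2 change 5.82 ± 0.14, adjusted p = 2.31e-25). Among plexins, PLXNB1, the receptor for SEMA4D, had 31.7, 30.3 and 34.7 CPM in HCC38 and 31.6, 30.7 and 32.5 CPM in HCC1937 against 6.67, 7.26 and 6.51 CPM in HCC1395, and PLXNA4 had 0.371, 0.0599 and 0.31 CPM in HCC38 and 0.409, 0.132 and 0.167 CPM in HCC1937 against 3.23, 4.27 and 4.14 CPM in HCC1395. All 9 plexins were called in each comparison with HCC1395, 6 higher and 3 lower both times. Of all genes, 74.7% were called for HCC38 and 73.0% for HCC1937, and the 2 comparisons share the HCC1395 DMSO libraries.

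EZH2i alone was given to HCC1395 only, and there most members called were higher than with DMSO. Of 47 members tested, 23 rose and 5 fell, against 18.8% and 14.9% of all genes (33.7% called in all), and the median log2 change was 0.37 against 0.02 over all genes tested. By family, 4 of 8 ephrins rose and none fell, 8 of 19 semaphorins tested rose and 2 fell, 6 of 9 Eph receptors tested rose and 1 fell, 4 of 9 plexins rose and 2 fell, and NRP2 of the neuropilins rose. Of the 17 members that averaged under 5 CPM over the 12 HCC1395 libraries, 10 rose and none fell, where 22.5% of all genes at that level rose and 2.47% fell. Of the 30 at 5 CPM or more, 13 rose and 5 fell, where 16.4% of all genes rose and 23.05% fell. Split in the same way, the lower members rose in 7 of 17 cases and fell in none with AKTi (19.2% and 7.61% of all such genes). With EZH2i+AKTi they rose in 12 of 17 and fell in none in HCC1395 (36.0% and 7.97%), and rose in 10 of 19 and fell in none in HCC38 (19.6% and 5.16%). In HCC1937 7 of 16 rose and 2 fell, closer to the 35.7% and 10.3% of all such genes. The low-count filter bears on this split, since a gene can pass it through treated libraries alone. SEMA3D, with 2 counts in the HCC1395 DMSO libraries and 120 with EZH2i, is such a member. A gene of that kind could hardly be called lower, so the absence of falls is partly set by the filter. All genes at that level went through the same filter.

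Among the ligands, EFNA5 (ephrin-A5, chr5:107376889-107670895, minus strand, GRCh38) had 12.4, 12.5 and 12.7 CPM with EZH2i against 3.07, 2.82 and 2.86 CPM with DMSO. Every EZH2i library lay above every DMSO library, about 4 times as high (log2 change 2.11 ± 0.10, adjusted p = 1.5e-12). EFNA2 had 3.41, 3.08 and 2.41 CPM with EZH2i against 1.21, 1.05 and 0.862 CPM with DMSO (log2 change 1.51 ± 0.21, adjusted p = 1.01e-05). EFNA1 (26.1 against 23.7 CPM as means, adjusted p = 0.158) and EFNB2 (43.1 against 42 CPM, adjusted p = 0.644) did not pass the test. SEMA5B, a membrane semaphorin with thrombospondin repeats, had 3.23, 2.99 and 3.26 CPM with EZH2i against 0.269, 0.256 and 0.25 CPM with DMSO (log2 change 3.60 ± 0.32, adjusted p = 1.42e-09). SEMA5A had 3.49, 3.27 and 4.0 CPM against 1.53, 1.62 and 1.2 CPM (log2 change 1.31 ± 0.22, adjusted p = 0.000102). SEMA4D, the ligand of plexin-B1, had 14.4, 14.2 and 15.1 CPM with EZH2i against 8.53, 10.3 and 7.79 CPM with DMSO (log2 change 0.72 ± 0.10, adjusted p = 5.12e-06).

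SEMA3D was all but silent with DMSO, 2 counts in 3 libraries, and had 120 counts in the 3 EZH2i libraries, or 0.94, 0.885 and 1.14 CPM. The ratio of the pooled counts was 53.4, with an exact 95% counting interval of 14.5 to 446 that covers counting error only. Such ratios were formed only where DMSO held a few counts and the treated group clearly more, so their height is no test. Going the other way, SEMA7A, a lipid-anchored semaphorin that binds plexin-C1 and integrins, had 11, 10.7 and 11.7 CPM with EZH2i against 21, 23.8 and 25.2 CPM with DMSO, without overlap (log2 change -1.07 ± 0.09, adjusted p = 4.86e-09). SEMA4B had 87.1, 88.6 and 93.7 CPM with EZH2i against 117, 125 and 127 CPM with DMSO (log2 change -0.45 ± 0.05, adjusted p = 8.61e-07). The secreted SEMA3A and SEMA3C did not pass, with means of 39.4 against 40.4 CPM (adjusted p = 0.756) and 327 against 307 CPM (adjusted p = 0.207), nor did SEMA3F, at 43.9 against 48.8 CPM (adjusted p = 0.0646).

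Of the receptors, EPHB6 (chr7:142855061-142871094, plus strand) had the highest log2 change among the Eph receptors tested, with 14.7, 16.4 and 16.5 CPM with EZH2i against 1.83, 1.93 and 1.2 CPM with DMSO (log2 change 3.27 ± 0.16, adjusted p = 1.6e-12). The lowest EZH2i library was far above the highest DMSO library. EPHB2 had 102, 96.1 and 105 CPM against 80.5, 82.9 and 84.3 CPM (log2 change 0.30 ± 0.05, adjusted p = 8.24e-05). EPHA4, which binds ephrins of both classes, had 7.9, 8.2 and 7.01 CPM against 5.52, 6.12 and 5.31 CPM (log2 change 0.45 ± 0.12, adjusted p = 0.00505). EPHA2 was the one Eph receptor that fell, to 119, 120.0 and 119.7 CPM with EZH2i against 159, 163 and 172 CPM with DMSO (log2 change -0.46 ± 0.05, adjusted p = 3.19e-07), while EPHB4 did not pass (255 against 278 CPM, adjusted p = 0.0642). PLXND1, a plexin of vessels that binds SEMA3E, had 42.8, 40.6 and 44 CPM with EZH2i against 20.5, 20.4 and 20.7 CPM with DMSO (log2 change 1.05 ± 0.07, adjusted p = 7.05e-10). PLXNA1 had 69.8, 70.7 and 75.2 CPM against 91.1, 99.1 and 93.3 CPM (log2 change -0.39 ± 0.07, adjusted p = 0.000388). PLXNB2 had 246, 247 and 253 CPM against 286, 299 and 293 CPM (log2 change -0.23 ± 0.05, adjusted p = 0.000485). NRP2 had 2.32, 1.81 and 2.04 CPM with EZH2i against 0.942, 0.654 and 0.584 CPM with DMSO (log2 change 1.49 ± 0.21, adjusted p = 9.75e-06), NRP1 469 against 485 CPM (adjusted p = 0.584), and PLXNB1 7.43 against 6.81 CPM (adjusted p = 0.303). Of the 28 calls, 26 held under every alternative that gave a value (the stricter filter drops SEMA3D, SEMA6D and EPHA3), and those of PLXNA2 and SEMA6C were lost without EZH2i library A, among other libraries.

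AKTi alone, also given to HCC1395 only, raised 21 of 47 and lowered 8, against 27.1% and 22.6% of all genes (49.7% called in all), with a median log2 change of 0.21 against 0.06 over all genes. No Eph receptor fell and 5 of 9 rose, 5 of 9 plexins rose and 1 fell, 8 of 19 semaphorins rose and 4 fell, 2 of 8 ephrins rose and 3 fell, and NRP1 rose. The leading cue was SEMA6C (chr1:151131685-151146664, minus strand), a membrane semaphorin, with 17, 15.6 and 16.1 CPM with AKTi against 4.55, 4.24 and 4.53 CPM with DMSO (log2 change 1.86 ± 0.09, adjusted p = 9.66e-13). All AKTi libraries were more than 3 times as high as any DMSO library.

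EFNA1, the ligand of EPHA2, had 59.8, 55.5 and 53.9 CPM with AKTi against 23.1, 24.6 and 23.3 CPM with DMSO (log2 change 1.25 ± 0.08, adjusted p = 3.01e-11). EFNB3 had 43.3, 39.7 and 39.8 CPM against 25.1, 23.9 and 26.4 CPM (log2 change 0.70 ± 0.06, adjusted p = 5.93e-09). Of the class 3 cues, SEMA3C had 505, 508 and 502 CPM with AKTi against 306, 312 and 305 CPM with DMSO (log2 change 0.71 ± 0.06, adjusted p = 1.41e-09). SEMA3A had 44.7, 50.1 and 49 CPM against 41.5, 40.5 and 39.3 CPM (log2 change 0.24 ± 0.06, adjusted p = 0.00353). SEMA4A, a membrane cue of epithelia and immune cells, had 1.91, 2.42 and 2.15 CPM against 0.996, 0.911 and 1.2 CPM (log2 change 1.05 ± 0.19, adjusted p = 8.74e-05). In the other direction, SEMA6B had 151, 148 and 147 CPM with AKTi against 202, 211 and 229.6 CPM with DMSO (log2 change -0.53 ± 0.05, adjusted p = 3.05e-08), SEMA7A 16.7, 16.7 and 17.6 CPM against 21, 23.8 and 25.2 CPM (log2 change -0.46 ± 0.08, adjusted p = 8.81e-05). SEMA4D had 6.24, 6.45 and 6.69 CPM against 8.53, 10.3 and 7.79 CPM (log2 change -0.46 ± 0.10, adjusted p = 0.000744). SEMA3F and EFNB2 fell slightly, to 42 and 35.9 CPM with AKTi against 48.8 and 42 CPM with DMSO (log2 change -0.22 ± 0.06 and -0.23 ± 0.06).

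Of the receptors, NRP1 (chr10:33177492-33336262, minus strand) had 739, 746 and 749 CPM with AKTi against 480.5, 494 and 480.1 CPM with DMSO, without overlap (log2 change 0.61 ± 0.05, adjusted p = 6.94e-09). EPHB3 had 128, 122 and 124 CPM against 78, 76.9 and 76.7 CPM (log2 change 0.68 ± 0.04, adjusted p = 5.98e-11). EPHA4 had 8.46, 8.47 and 9.51 CPM with AKTi against 5.52, 6.12 and 5.31 CPM with DMSO (log2 change 0.64 ± 0.12, adjusted p = 0.000121). PLXND1 fell, to 14.9, 14.3 and 15.6 CPM with AKTi against 20.5, 20.4 and 20.7 CPM with DMSO (log2 change -0.47 ± 0.08, adjusted p = 4.01e-05). PLXNA1 had 113, 106 and 123 CPM against 91.1, 99.1 and 93.3 CPM (log2 change 0.27 ± 0.07, adjusted p = 0.00479). EPHB6 was 1.96 against 1.65 CPM (adjusted p = 0.303), NRP2 0.885 against 0.727 CPM (adjusted p = 0.353), EPHB2 85.7 against 82.6 CPM (adjusted p = 0.456) and PLXNB1 7.66 against 6.81 CPM (adjusted p = 0.155), none of which passed. EPHA2, at 182 against 165 CPM, and EPHB4, at 306 against 278 CPM, were called slightly higher (log2 change 0.14 ± 0.05 and 0.13 ± 0.05). However, RLE scaling, DESeq2 and leaving out DMSO library A each ended both calls. Those of EFNA4 and EFNB1, lower, ended without AKTi library B, and that of SEMA5B, higher, ended without any 1 of the DMSO libraries.

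EZH2i and AKTi could be set against each other directly in HCC1395, and members were called in both directions. With EZH2i, 22 of 47 members were higher than with AKTi and 14 lower (28.6% and 27.0% of all genes, 55.6% in all). All 8 ephrins differed, 7 higher with EZH2i and EFNA1 lower. EFNA5 had 12.5 ± 0.168 CPM with EZH2i and 3.16 ± 0.226 CPM with AKTi (log2 difference 2.00 ± 0.10), and EFNA1 26.1 ± 1.55 and 56.4 ± 3.07 CPM (log2 difference -1.10 ± 0.07). EPHB6 (3.02 ± 0.15), SEMA5B (2.73 ± 0.26), PLXND1 (1.52 ± 0.08) and SEMA4D (1.18 ± 0.10) were higher with EZH2i on the log2 scale. SEMA6C (-1.53 ± 0.09), NRP1 (-0.66 ± 0.05), PLXNA1 (-0.66 ± 0.07), SEMA3C (-0.61 ± 0.06) and EPHA2 (-0.60 ± 0.05) were lower with EZH2i than with AKTi. These differences have adjusted p of at most 3.48e-07.

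**Figure D2:**
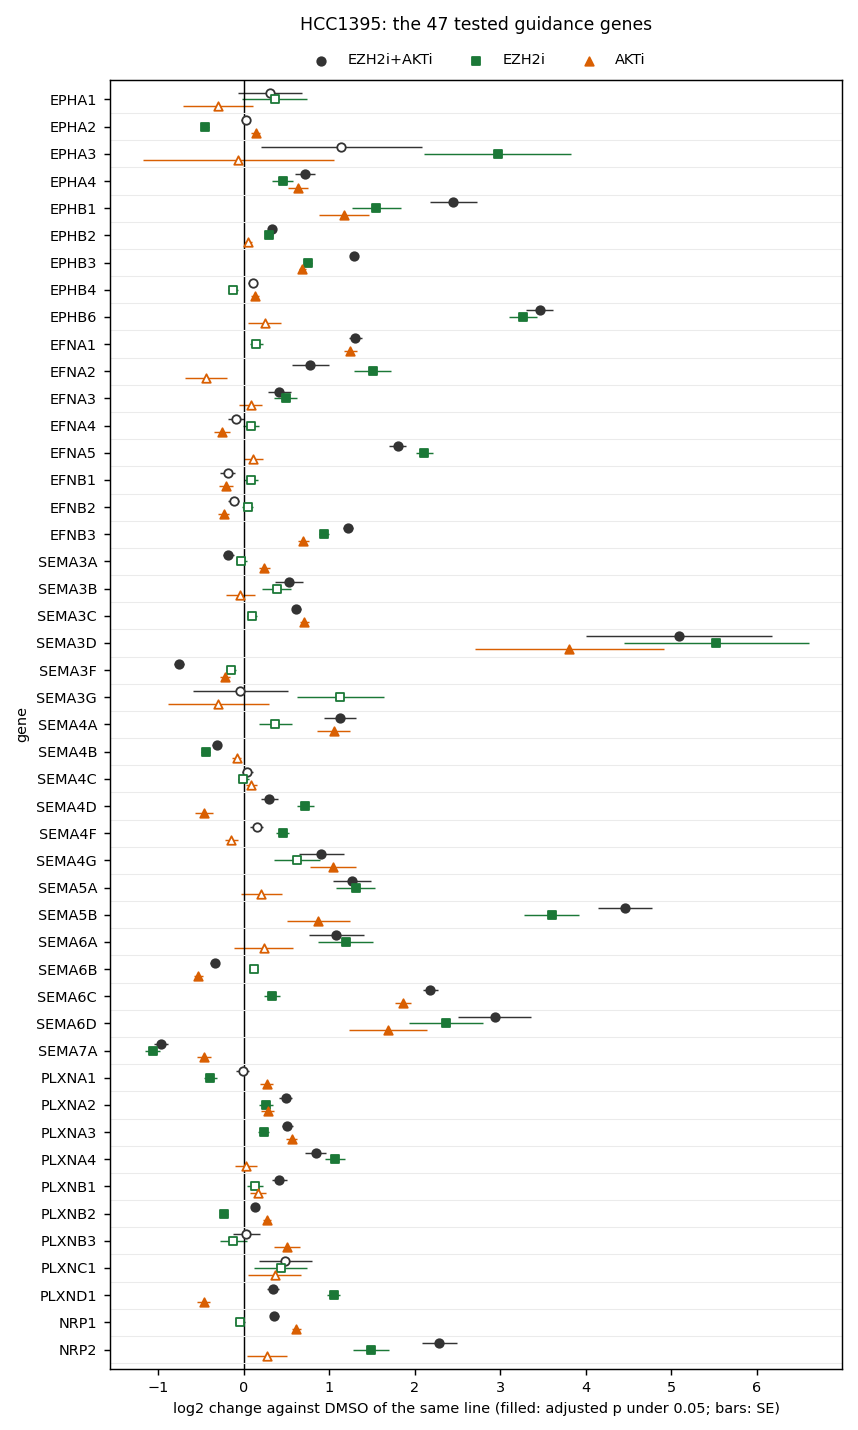
log2 change against DMSO in HCC1395 for the 47 guidance genes tested, with EZH2i+AKTi, EZH2i and AKTi (points, bars are the SE of the fit, filled where the adjusted p is under 0.05). The 3 comparisons share the DMSO libraries; EPHB6 and EFNA5 are far right with EZH2i and with both inhibitors but near 0 with AKTi, and SEMA6C is far right with AKTi and with both.

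With both inhibitors most members called in HCC1395 were higher than with DMSO. Of 47 tested, 29 rose and 5 fell, against 32.5% and 27.4% of all genes (60.0% called in all), and the median log2 change was 0.48 against 0.07 over all genes. Since the 3 treated groups share the DMSO libraries, their changes are given side by side and not correlated. All 5 that fell are semaphorins, SEMA3A, SEMA3F, SEMA4B, SEMA6B and SEMA7A, and 11 semaphorins, 6 plexins, 5 ephrins, 5 Eph receptors and both neuropilins rose.

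EPHB6 had 17.9, 20.1 and 17 CPM with both inhibitors against 1.83, 1.93 and 1.2 CPM with DMSO (log2 change 3.46 ± 0.16, adjusted p = 1.03e-13), beside a log2 change of 3.27 with EZH2i. EPHB1, a less abundant Eph receptor, also rose, with 154, 108 and 88 counts with both against 13, 14 and 24 with DMSO. It rose in HCC1937 too, with 44, 59 and 53 counts with EZH2i+AKTi against 13, 20 and 10 with DMSO. SEMA6C had 20.3, 21.3 and 19.2 CPM against 4.55, 4.24 and 4.53 CPM (log2 change 2.18 ± 0.09, adjusted p = 3.09e-14), beside 0.33 with EZH2i and 1.86 with AKTi. SEMA5B had 5.54, 5.44 and 6.47 CPM with both against 0.269, 0.256 and 0.25 CPM with DMSO (log2 change 4.46 ± 0.31, adjusted p = 4.2e-12), and was also above EZH2i alone, at 3.23, 2.99 and 3.26 CPM (log2 change 0.86 ± 0.17, adjusted p = 0.000262). NRP2 had 3.68, 3.78 and 3.27 CPM with both against 0.942, 0.654 and 0.584 CPM with DMSO (log2 change 2.29 ± 0.21, adjusted p = 2.84e-09), and again exceeded EZH2i alone (log2 change 0.80 ± 0.17, adjusted p = 0.000528). EPHB3 (chr3:184561784-184582409, plus strand) was highest with both inhibitors and lowest with DMSO, with 192, 186 and 192 CPM with both, 131, 131 and 127 CPM with EZH2i and 128, 122 and 124 CPM with AKTi, against 78, 76.9 and 76.7 CPM with DMSO (log2 change 1.29 ± 0.04, adjusted p = 2.06e-15 for both against DMSO). The ligands EFNB3, at 58.7 ± 0.52 CPM with both, and EFNA1, at 58.7 ± 6.78 CPM, were above DMSO by 1.22 ± 0.06 and 1.30 ± 0.08 on the log2 scale. EFNA5 had 10.8, 10.2 and 9.65 CPM (log2 change 1.80 ± 0.10, adjusted p = 2.93e-12), below EZH2i alone (log2 difference -0.31 ± 0.08, adjusted p = 0.00455).

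Some members that EZH2i and AKTi alone moved in opposite directions lay between them with both. PLXND1 had 28.4, 22.9 and 27.3 CPM with both, 42.8, 40.6 and 44 CPM with EZH2i and 14.9, 14.3 and 15.6 CPM with AKTi, against 20.5, 20.4 and 20.7 CPM with DMSO (log2 change 0.34 ± 0.07, adjusted p = 0.000511 for both against DMSO). SEMA4D had 11.7, 10.3 and 11 CPM with both, overlapping the DMSO libraries at 8.53, 10.3 and 7.79 CPM (log2 change 0.30 ± 0.10, adjusted p = 0.0109), a call that ended without DMSO library C, without EZH2i+AKTi library A and in a fit of those 2 groups alone. EPHA2 had 175, 159 and 171 CPM with both against 159, 163 and 172 CPM with DMSO (adjusted p = 0.722). PLXNA1 had 97.7, 82 and 103 CPM against 91.1, 99.1 and 93.3 CPM (adjusted p = 0.875). NRP1, at 627, 572 and 678 CPM with both, stayed above DMSO at 480.5, 494 and 480.1 CPM (log2 change 0.36 ± 0.05, adjusted p = 7.31e-06) but below AKTi alone (log2 change -0.25 ± 0.05, adjusted p = 0.000877). EPHB2 (0.33 ± 0.05), EPHA4 (0.72 ± 0.12), PLXNB1 (0.42 ± 0.09) and SEMA3C (0.61 ± 0.06) also rose on the log2 scale, while EPHB4 (300.3 against 278 CPM, adjusted p = 0.0794) and EFNB2 (39 against 42 CPM, adjusted p = 0.12) did not pass.

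SEMA3F, the NRP2 ligand (chr3:50155045-50189075, plus strand, overlapping the opposite-strand gene SEMA3F-AS1), fell to 28, 30.1 and 29 CPM with both, against 46.4, 47.1 and 53 CPM with DMSO (log2 change -0.76 ± 0.06, adjusted p = 1.27e-09), while it had 43.8, 43.6 and 44.3 CPM with EZH2i alone and 43.8, 42.8 and 39.6 CPM with AKTi alone. SEMA7A had 13.3, 11.4 and 11.2 CPM with both against 21, 23.8 and 25.2 CPM with DMSO (log2 change -0.97 ± 0.08, adjusted p = 3.56e-09). SEMA6B had 174, 175 and 162 CPM against 202, 211 and 229.6 CPM (log2 change -0.34 ± 0.05, adjusted p = 8.14e-06). SEMA3A was called lower with both (log2 change -0.18 ± 0.06, adjusted p = 0.0184), a call lost without DMSO library A or EZH2i+AKTi library A. The rise of SEMA3B was lost without EZH2i+AKTi library B, that of EFNA3 without the same library or DMSO library A, and that of PLXNB2 without EZH2i+AKTi library A or DMSO library A, with RLE scaling, with DESeq2, with no filter and in a fit of those 2 groups alone.

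Set against EZH2i alone, both inhibitors raised 18 members and lowered 10 (23.9% and 25.1% of all genes, 49.0% in all). Set against AKTi alone they raised 22 and lowered 8 (17.0% and 18.6% of all genes, 35.5% in all). The interaction, which asks whether the change with both differs from the sum of the log2 changes with each, was called for 6 of 47 members, 2 higher and 4 lower, against 0.526% and 1.06% of all genes (1.58% in all). EFNB3 (-0.42 ± 0.08, adjusted p = 0.0112), SEMA3F (-0.39 ± 0.09, adjusted p = 0.0243) and SEMA3A (-0.39 ± 0.09, adjusted p = 0.0282) were lower than the sum, and EPHA2 (0.34 ± 0.07, adjusted p = 0.0127) and SEMA7A (0.56 ± 0.12, adjusted p = 0.0172) higher. SEMA3D was the sixth, but its DMSO level rests on 2 counts, so no size is given. The other 5 calls were each lost under at least 1 alternative, while SEMA3D has no value under the stricter filter or with DESeq2 and kept its call under the rest. Leaving out 1 library changed the count to between 1 and 9, with 1 without EZH2i library B, 2 without EZH2i+AKTi library A, and 3 each without EZH2i library A, AKTi library A or AKTi library B.

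In HCC38, where only EZH2i+AKTi and DMSO were sequenced, most members called were higher than with DMSO. Of 45 tested, 21 rose and SEMA3F alone fell, against 16.8% and 14.5% of all genes (31.4% called in all), with a median log2 change of 0.34 against -0.01 over all genes. All 8 ephrins were tested and 4 rose (EFNA2, EFNA5, EFNB2 and EFNB3), as did 4 of 10 Eph receptors, 7 of 16 semaphorins, 4 of 9 plexins and both neuropilins. Without EZH2i+AKTi library C, the one that stands apart, 26 members were called in place of 22. Without any 1 of the 3 DMSO libraries 14 were called, and without EZH2i+AKTi library B 15, so 13 of the 22 held under every alternative and 9 did not. The share of all genes called in these reduced fits is not given here, so their counts have no background beside them.

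EFNB3 had 10, 6.62 and 6.64 CPM with EZH2i+AKTi against 1.68, 1.5 and 1.5 CPM with DMSO (log2 change 2.28 ± 0.20, adjusted p = 3.03e-05, and 2.42 without library C). The treated libraries were at least 3 times as high as any DMSO library. EFNA2 had 2.47, 1.87 and 1.74 CPM against 0.742, 0.718 and 0.677 CPM (log2 change 1.48 ± 0.23, adjusted p = 0.000872, and 1.61 without library C). EFNA5 had 5.43, 5.0 and 4.43 CPM against 3.08, 2.84 and 2.57 CPM (log2 change 0.78 ± 0.15, adjusted p = 0.0037, and 0.89 without library C). The EPHA2 ligand EFNA1 was not changed past the test, at 21.5 against 20.7 CPM (adjusted p = 0.905). SEMA6C had 4.6, 4.8 and 3.85 CPM with EZH2i+AKTi against 1.51, 1.83 and 1.58 CPM with DMSO (log2 change 1.40 ± 0.17, adjusted p = 0.000216, and 1.53 without library C). SEMA3E, the ligand of plexin-D1, had 3.77, 3.76 and 4.84 CPM against 1.63, 1.05 and 2.43 CPM (log2 change 1.24 ± 0.26, adjusted p = 0.00503, and 1.15 without library C).

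EPHB6 had 9.89, 9.03 and 6.39 CPM with EZH2i+AKTi against 1.65, 2.12 and 2.45 CPM with DMSO (log2 change 1.99 ± 0.21, adjusted p = 7.78e-05, and 2.19 without library C). EPHB2 had 118, 107 and 90.7 CPM against 50.5, 51.9 and 49.8 CPM (log2 change 1.02 ± 0.11, adjusted p = 0.000118, and 1.16 without library C). EPHA4 had 4.11, 4.59 and 6.23 CPM against 1.91, 1.68 and 2.31 CPM (log2 change 1.30 ± 0.20, adjusted p = 0.00095, and 1.15 without library C). In each of these genes library C was the lowest or the highest of the treated 3, yet the groups did not overlap. EPHA2, the most abundant member of the line, had 1516, 1329.5 and 1160.0 CPM against 1108, 1104 and 1157 CPM (adjusted p = 0.145), and EPHB4 85.2 against 102 CPM (adjusted p = 0.0756), neither past the test. Of the semaphorin receptors, NRP1 had 206, 218 and 269 CPM with EZH2i+AKTi against 142, 132 and 147 CPM with DMSO (log2 change 0.69 ± 0.11, adjusted p = 0.0014, and 0.60 without library C), PLXNA2 28.6, 25.7 and 27.2 CPM against 15, 14 and 15.3 CPM (log2 change 0.85 ± 0.10, adjusted p = 0.000201, and 0.89). PLXNA1 had 214, 206 and 193 CPM against 137, 129 and 142 CPM (log2 change 0.56 ± 0.09, adjusted p = 0.00126, and 0.64). PLXNB1 (33.5 against 32.2 CPM, adjusted p = 0.874) and SEMA3C (99.2 against 96.7 CPM, adjusted p = 0.979) did not pass.

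SEMA6B, which fell in HCC1395, had 25.5, 22.1 and 17.1 CPM against 12, 12.1 and 10.8 CPM in HCC38 (log2 change 0.86 ± 0.15, adjusted p = 0.00187, and 1.04 without library C).

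The 9 less stable calls in HCC38 were PLXNB2, EFNB2, SEMA3B, PLXND1, SEMA4D, SEMA7A, SEMA3A and NRP2, higher, and SEMA3F, lower. SEMA3F had 13.8, 13.4 and 12.2 CPM with EZH2i+AKTi against 16.8, 15.9 and 17.7 CPM with DMSO (log2 change -0.38 ± 0.11, adjusted p = 0.0204, and -0.30 without library C), with its call lost without DMSO library A or C or EZH2i+AKTi library B. SEMA7A had 55.3, 47.3 and 33.6 CPM against 30.2, 31.3 and 31.7 CPM (log2 change 0.52 ± 0.16, adjusted p = 0.0316, and 0.73 without library C), lost without any other single library. SEMA3A (0.59 ± 0.20, adjusted p = 0.0477) was the one whose call ended without library C, at 0.43 (adjusted p = 0.09). NRP2 had 3.74, 3.4 and 4.84 CPM against 2.6, 2.18 and 2.93 CPM (log2 change 0.60 ± 0.19, adjusted p = 0.0318, and 0.48 without library C), lost without DMSO library A or B.

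In HCC1937 members were called in both directions with the same treatment. Of 46 tested, 19 members rose and 12 fell, against 30.5% and 28.8% of all genes (59.3% called in all), with a median log2 change of 0.15 against 0.03 over all genes. The share that fell is near that of all genes. Of ephrins 4 of 8 rose and 1 fell, of semaphorins 9 of 18 rose and 6 fell, of Eph receptors 2 of 9 rose and 2 fell, of plexins 4 of 9 rose and 1 fell, and both neuropilins fell. EFNB3 had 5.37, 5.2 and 5.41 CPM with EZH2i+AKTi against 0.721, 0.286 and 0.375 CPM with DMSO, at least 7 times as high in any treated library as in any DMSO library (log2 change 3.54 ± 0.25, adjusted p = 4.71e-09). SEMA6C had 7.08, 6.39 and 6.83 CPM against 0.625, 0.572 and 0.895 CPM (log2 change 3.26 ± 0.18, adjusted p = 5.82e-10).

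Other ligands moved by less. EFNA1 had 48.1, 50.7 and 54.8 CPM with EZH2i+AKTi against 27.8, 27.1 and 26.2 CPM with DMSO (log2 change 0.92 ± 0.07, adjusted p = 2.5e-08). EFNA5, more abundant here than in the other lines, had 54.6, 51.7 and 54.4 CPM against 34.7, 36.8 and 38.2 CPM (log2 change 0.55 ± 0.06, adjusted p = 3.4e-06). SEMA3E had 21.8, 21.7 and 22 CPM against 6.85, 8.37 and 6.89 CPM (log2 change 1.56 ± 0.09, adjusted p = 1.8e-09). SEMA6D, with 4 counts in the 3 DMSO libraries, had 164 counts in the EZH2i+AKTi libraries, 1.41, 1.23 and 1.35 CPM. EFNB2, the EPHB4 ligand, fell to 35.6, 35.7 and 35.7 CPM with EZH2i+AKTi against 63, 68.2 and 70.5 CPM with DMSO, without overlap (log2 change -0.92 ± 0.06, adjusted p = 1.4e-08). The class 3 cues SEMA3C, at 47.3, 48.6 and 47.7 CPM against 76.1, 82.5 and 86.6 CPM (log2 change -0.78 ± 0.06, adjusted p = 7.92e-08), SEMA3F, at 17.5, 17.7 and 15.7 CPM against 28.7, 29.5 and 29.2 CPM (log2 change -0.78 ± 0.07, adjusted p = 3.12e-07), and SEMA3D, at 1.22, 1.09 and 1.07 CPM against 3.29, 3.48 and 3.62 CPM (log2 change -1.63 ± 0.16, adjusted p = 5.03e-07), also fell. SEMA5A had 2.52, 2.47 and 2.27 CPM against 5.19, 5.46 and 4.62 CPM (log2 change -1.08 ± 0.13, adjusted p = 5.81e-06). SEMA7A went up, with 23.8, 25.2 and 23.9 CPM against 17.8, 15.5 and 17.3 CPM (log2 change 0.52 ± 0.08, adjusted p = 3.52e-05). SEMA4D was called slightly lower, at 51 against 57.3 CPM (log2 change -0.17 ± 0.06, adjusted p = 0.0228), a call lost without DMSO library B or C or EZH2i+AKTi library B, with the stricter filter, with a replicate block and in the fit of all 24 libraries.

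Of the receptors, NRP2 (chr2:205681990-205798133, plus strand), abundant in this line, had 47.5, 46 and 47.4 CPM with EZH2i+AKTi against 81.5, 92.4 and 92.1 CPM with DMSO (log2 change -0.92 ± 0.06, adjusted p = 1.36e-08). PLXNA2 (chr1:208022242-208244320, minus strand) had 40.7, 38 and 34.8 CPM against 62.4, 72.5 and 73.9 CPM (log2 change -0.88 ± 0.08, adjusted p = 1.81e-07). NRP1 had 178, 169 and 171 CPM against 194, 222 and 228 CPM (log2 change -0.32 ± 0.06, adjusted p = 0.000614). None of these groups overlap, the treated one being lower in all 3. EPHA1 had 44.4, 50.1 and 54.3 CPM with EZH2i+AKTi against 85.4, 85.1 and 81.8 CPM with DMSO (log2 change -0.76 ± 0.07, adjusted p = 2.88e-07), EPHB3 71.6, 69.5 and 70.5 CPM against 97.7, 103 and 109 CPM (log2 change -0.55 ± 0.06, adjusted p = 1.42e-06). EPHB6 had 34.8, 40.1 and 40.9 CPM against 22.4, 20.2 and 22.9 CPM (log2 change 0.82 ± 0.08, adjusted p = 4.79e-07). PLXNB1 had 53.5, 55.9 and 51.8 CPM against 31.6, 30.7 and 32.5 CPM (log2 change 0.76 ± 0.06, adjusted p = 1.05e-07). EPHA2 (397 against 365 CPM, adjusted p = 0.0644), EPHA4 (8.51 against 8.88 CPM, adjusted p = 0.583), EPHB2 (93.3 against 90.4 CPM, adjusted p = 0.534), EPHB4 (224 against 240.0 CPM, adjusted p = 0.125) and PLXND1 (39.7 against 41.8 CPM, adjusted p = 0.325) did not pass. PLXNA1 was called higher at adjusted p = 0.0498, which all alternatives but the stricter filter ended.

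Across the 3 lines, 40 members could be tested in each and 13 were called in each with EZH2i+AKTi. EFNA2, EFNA5, EFNB3, EPHB6, PLXNB2, SEMA3B and SEMA6C rose in all 3, 7 of 40 where 7.80% of the 14980 genes tested in all 3 did. SEMA3F fell in all 3, against 7.34% of all genes. NRP1, NRP2, PLXNA2, SEMA4D and SEMA7A were called in opposite directions, 5 of 40 where 3.30% of all genes were. Of the shared 8, SEMA3F's call in HCC38, and SEMA3B's and PLXNB2's in each line, were lost without single libraries, while EFNA2, EFNA5, EFNB3, EPHB6 and SEMA6C held under every alternative in each line. Of the 5 with opposite calls, NRP1 and PLXNA2 held under every alternative in each line. The calls of SEMA4D were lost under at least 1 alternative in each line, and those of NRP2 and SEMA7A in HCC38. The plot of changes by line shows EFNB3 and SEMA6C largest in HCC1937, and EPHB6 and EFNA5 largest in HCC1395.

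**Figure D3:**
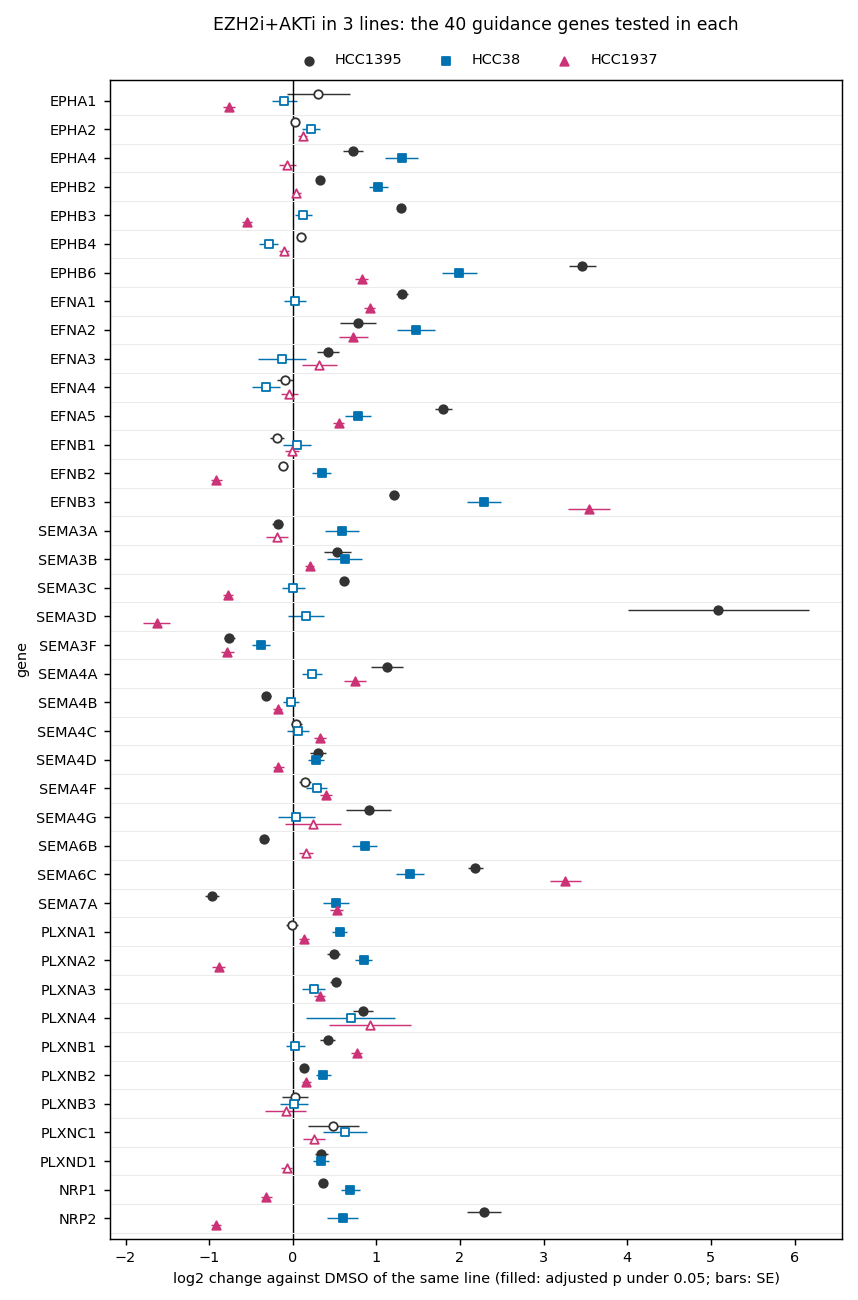
log2 change with EZH2i+AKTi against DMSO of the same line for the 40 guidance genes tested in HCC1395, HCC38 and HCC1937 (points, bars are the SE of the fit, filled where the adjusted p is under 0.05). NRP2 is at 2.29 in HCC1395, 0.60 in HCC38 and -0.92 in HCC1937, and SEMA3F lies left of 0 in each.

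How far the response itself differed between lines was tested in the fit of all 24 libraries. The response in HCC38 exceeded that in HCC1395 for 15 of 51 members and fell short for 14 (17.4% and 15.6% of all genes, 33.0% in all). In HCC1937 it was above HCC1395 for 8 and below for 17 (11.3% and 12% of all genes, 23.3% in all), and in HCC38 above HCC1937 for 21 and below for 6 (17.7% and 14.3% of all genes, 32.0% in all). These 3 comparisons share libraries with each other. EFNB3 responded more in HCC1937 than in HCC1395, by 2.33 ± 0.26 on the log2 scale (adjusted p = 6.74e-09), and more in HCC38 than in HCC1395, by 1.09 ± 0.20 (1.18 without HCC38 library C), from a DMSO level that was far lower in both. EPHB6 responded less than in HCC1395 in HCC38 (-1.44 ± 0.25, and -1.29 without library C) and in HCC1937 (-2.65 ± 0.22). EFNA5 did so too, by -1.00 ± 0.14 in HCC38 (-0.93 without library C) and -1.26 ± 0.12 in HCC1937. SEMA6C responded more in HCC1937 than in HCC1395 (1.07 ± 0.19) and less in HCC38 (-0.75 ± 0.18, and -0.67 without library C). For SEMA3F the fall in HCC1937 was as in HCC1395 within the error (-0.03 ± 0.10, adjusted p = 0.903) and that in HCC38 smaller (0.40 ± 0.11, and 0.45 without library C). EFNA1 rose in HCC1395 and in HCC1937 but responded less in HCC38 than in HCC1395, by -1.25 ± 0.13 (-1.15 without library C), and EPHB2 responded more in HCC38 than in HCC1395, by 0.72 ± 0.10 (0.81 without library C).

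**Figure D4:**
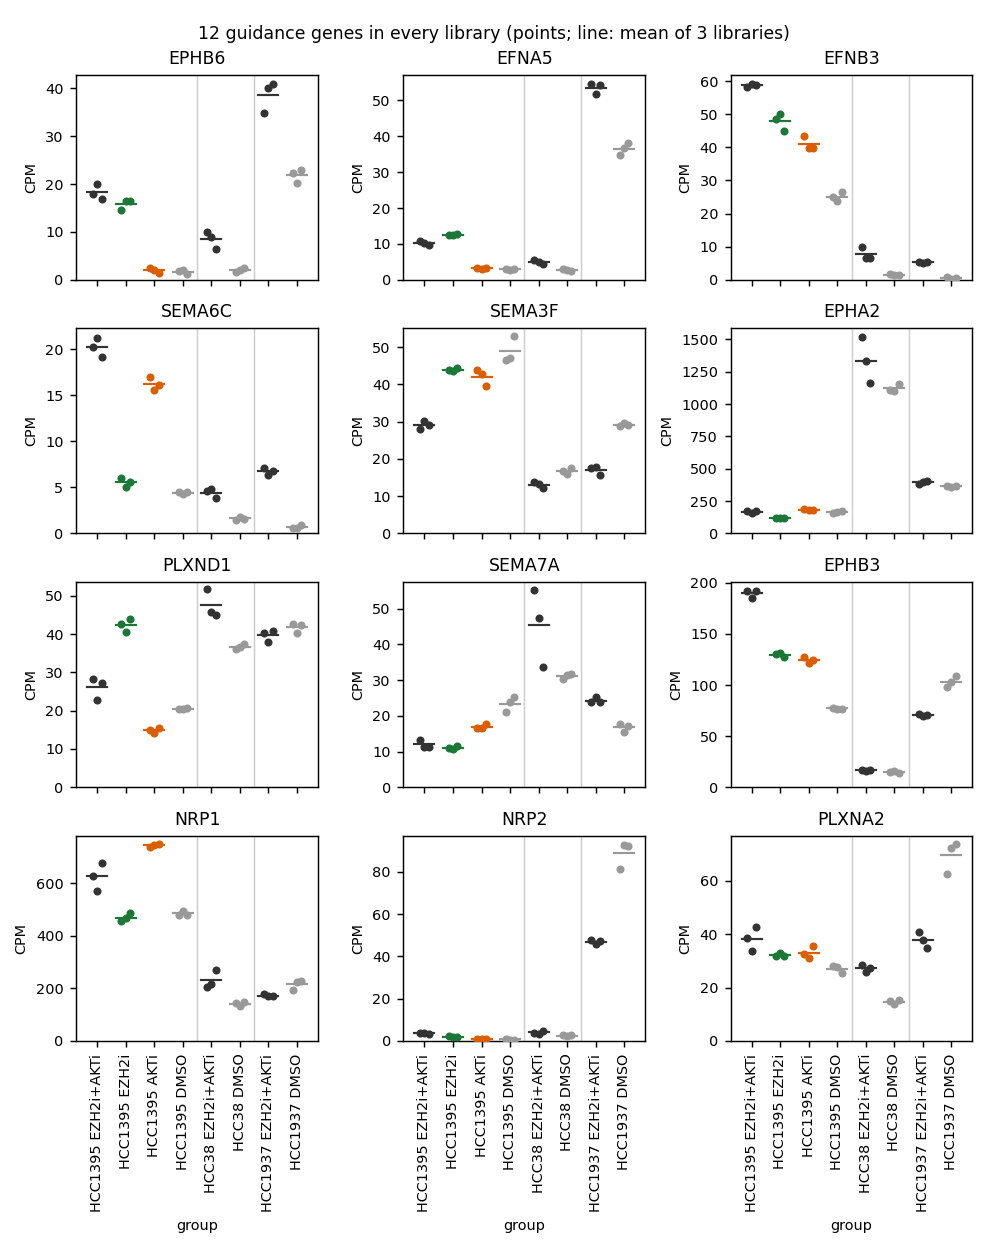
Level in CPM (points are libraries, lines the mean of 3, linear axes) of 12 guidance genes in the 8 groups, EZH2i+AKTi left of its DMSO in each line. PLXND1 is above DMSO with EZH2i and below it with AKTi in HCC1395, and NRP2 and PLXNA2 are below DMSO with EZH2i+AKTi in HCC1937 and above it in the other lines.

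Summed over a family, the levels of ligands and receptors are given without a test, since abundant members set such sums. The 8 ephrins summed to 201 ± 5.33 CPM with both inhibitors, 170 ± 2.86 CPM with EZH2i and 168 ± 6.68 CPM with AKTi, against 129 ± 4.46 CPM with DMSO in HCC1395. They summed to 104 ± 8.79 against 83.6 ± 3.35 CPM in HCC38 and to 189 ± 6.99 against 173 ± 2.84 CPM in HCC1937 with EZH2i+AKTi against DMSO. The 2 neuropilins summed to 629 ± 52.9 CPM with both inhibitors, 471 ± 14.9 CPM with EZH2i and 746 ± 5.44 CPM with AKTi, against 486 ± 8.14 CPM with DMSO in HCC1395. With EZH2i+AKTi against DMSO they summed to 235 ± 34.5 against 143 ± 8.12 CPM in HCC38 but to 220 ± 5.00 against 303 ± 24.5 CPM in HCC1937. The 9 plexins summed to 559 ± 37.4 CPM with both, 462 ± 9.97 CPM with EZH2i and 594 ± 18.2 CPM with AKTi, against 489 ± 11.4 CPM with DMSO in HCC1395. With EZH2i+AKTi against DMSO they summed to 928 ± 61.4 against 691 ± 21.2 CPM in HCC38 and to 894 ± 20.6 against 823 ± 11.5 CPM in HCC1937.

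The 14 Eph receptors summed to 794 ± 27.5 CPM with both, 632 ± 8.27 CPM with EZH2i and 711 ± 10.4 CPM with AKTi, against 611 ± 21.5 CPM with DMSO in HCC1395. With EZH2i+AKTi against DMSO they summed to 1574 ± 208 against 1312 ± 28 CPM in HCC38, most of it EPHA2, and to 887 ± 24.9 against 917 ± 11.6 CPM in HCC1937. The 20 semaphorins summed to 936 ± 44.5 CPM with both, 847 ± 13.7 CPM with EZH2i and 972 ± 2.23 CPM with AKTi, against 839 ± 23.0 CPM with DMSO in HCC1395. With EZH2i+AKTi against DMSO they summed to 420 ± 16.4 against 375 ± 12.3 CPM in HCC38 and to 524 ± 7.19 against 526 ± 4.40 CPM in HCC1937, where the libraries overlap.

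Genes that work beside these families were followed in 3 lists. With EZH2i+AKTi 32.5% of all genes rose and 27.4% fell in HCC1395, 16.8% and 14.5% in HCC38, and 30.5% and 28.8% in HCC1937. Of 38 signalling partners of Eph receptors and plexins, all tested in HCC1395, EZH2i+AKTi raised 21 and lowered 7 there, with a median log2 change of 0.28 against 0.07 over all genes. It raised 13 and lowered 1 of 37 tested in HCC38 and raised 17 and lowered 11 of 38 in HCC1937 (medians 0.26 and 0.12, against -0.01 and 0.03 over all genes). The 11 that fell in HCC1937 are near the share of all genes. NGEF (ephexin-1), an exchange factor that EphA receptors signal through, rose in HCC1395 (4.46 against 1.35 CPM, log2 change 1.72 ± 0.18) and in HCC38 (22.1 against 10.3 CPM, 1.07 ± 0.11) but fell in HCC1937 (22.6 against 37.5 CPM, -0.73 ± 0.07). FARP2, an exchange factor bound to class A plexins, fell in all 3, by 0.81 ± 0.08, 0.49 ± 0.11 and 0.92 ± 0.10 on the log2 scale in HCC1395, HCC38 and HCC1937. FYN, a kinase recruited by both systems, rose in HCC38 (12.7 against 2.32 CPM, log2 change 2.43 ± 0.15) and in HCC1937 (80.4 against 30.9 CPM, 1.38 ± 0.06). MICAL2, an actin-oxidising enzyme of the MICAL family that plexins act through, fell in HCC1395 (36.4 against 76.5 CPM, log2 change -1.09 ± 0.07).

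Of 10 co-receptors outside the families, EZH2i+AKTi raised 5 and lowered 3 of 9 tested in HCC1395, raised 3 and lowered none of 6 in HCC38, and raised 7 and lowered 1 of 9 in HCC1937. Their median log2 changes were 0.48, 0.23 and 0.92, and the 3 that fell in HCC1395 are near the share of all genes. ITGB1, the integrin subunit that SEMA7A binds, fell in HCC1395 (1734 against 2440 CPM, log2 change -0.50 ± 0.06) and in HCC1937 (1168 against 1531 CPM, -0.39 ± 0.07) and rose in HCC38 (1736 against 1037 CPM, 0.71 ± 0.11). MET, a kinase that pairs with plexin-B1, rose in HCC38 (253 against 125 CPM, log2 change 0.99 ± 0.12) and fell slightly in HCC1395 (111 against 128 CPM, -0.21 ± 0.06). NRCAM, an adhesion partner of neuropilins, rose in HCC1395 (45 against 9.39 CPM, log2 change 2.25 ± 0.09). Of 28 other guidance cues and receptors, 12 rose and 4 fell of 22 tested in HCC1395, 9 and 2 of 18 in HCC38, and 13 and 4 of 21 in HCC1937, with median log2 changes of 0.31, 0.49 and 0.39. VEGFA, which also binds NRP1, fell in all 3, by 0.86 ± 0.06, 0.63 ± 0.13 and 0.93 ± 0.06 on the log2 scale in HCC1395, HCC38 and HCC1937. DRAXIN, a netrin antagonist, rose in HCC1395 (12 against 2.27 CPM, log2 change 2.39 ± 0.12) and in HCC38 (6.84 against 0.425 CPM, 3.97 ± 0.23), and the netrin receptor NEO1 rose in HCC1937 (32.1 against 4.89 CPM, 2.71 ± 0.08). Without HCC38 library C the log2 changes in HCC38 were 2.50 for FYN, 1.16 for NGEF, -0.52 for FARP2, 0.89 for MET, 0.63 for ITGB1, 4.10 for DRAXIN and -0.45 for VEGFA. In that fit the lists had 20 higher and 1 lower of 37 tested, 4 higher and none lower of 6, and 10 higher and 3 lower of 18. The share of all genes called without library C is not given here, so these counts have no background beside them.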

How the data were processed

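Poly(A) RNA of 24 libraries, 8 groups of 3, was sequenced. The authors deposited raw counts per gene for each library, 58735 entries. Per the submitters' processing notes the tools were fastp, HISAT2 2.0.5 and DESeq2, with the genome build hg38. For the read counter, strand setting and annotation release: not given in the sources used here. Of the deposited normalised tables, 3 with 24 columns of per-sample values were not used: the columns of one carry a cell line name that is in no label.

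Counts were tested with edgeR 4.0.16 in R 4.3.3 (filterByExpr with a minimum count of 10, TMM scaling, robust quasi-likelihood fit, Benjamini-Hochberg adjustment, threshold 0.05), in one fit for each line (18074, 17100 and 17692 genes tested in HCC1395, HCC38 and HCC1937) and one of all 24 libraries (20697 genes) for differences between lines. Of the 53 members, 47, 45, 46 and 51 passed the filter, and EPHA6 and EPHA7 passed in none. Printed CPM come from the fit of all libraries. Alternatives were RLE scaling, no filter, a stricter filter of 1 CPM in 3 libraries, DESeq2 1.42.0, a replicate block, other sets of libraries in the fit, and leaving out each library. Totals of 33469927 to 51815656 counts set the precision, and intervals of count ratios are exact 95% intervals for counting error only.

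Full statistics are given for up to 6 called members with the highest and up to 6 with the lowest log2 change in a comparison, among those averaging at least 1 CPM, and for a fixed panel in any comparison. EPHB1 is given by its counts alone. Other members named, the HCC38 values without one library for the related lists, and the split at 5 CPM were chosen after values were seen. The members and gene lists were chosen with earlier results of these data known. Overlaps and exon lengths are from GENCODE 29, and promoters from RefSeq on GRCh38.p14. The tests were checked on simulated counts.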

Additional observations from a re-analysis of the deposited data

Results flagged for a closer look

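For 17 responses to EZH2i+AKTi the difference between lines, tested in the fit of all 24 libraries, passed the threshold and the member was called in opposite directions in the lines compared (edgeR's quasi-likelihood test with Benjamini-Hochberg adjustment). Each value is a difference of log2 changes. The share of all genes that met both conditions is not given here, so the count of 17 has no background beside it. Within HCC38 the calls of EFNB2, NRP2, SEMA3A, SEMA4D and SEMA7A were lost under some alternatives. So were those of SEMA4D in the other lines and of SEMA3A in HCC1395.

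Between HCC38 and HCC1395 these members were SEMA3A, SEMA6B and SEMA7A. The response in HCC38 was higher by 0.79 ± 0.18 for SEMA3A, 1.23 ± 0.14 for SEMA6B and 1.51 ± 0.16 for SEMA7A (adjusted p = 0.000757, 5.54e-08 and 1.81e-08), and by 0.60, 1.37 and 1.68 without HCC38 EZH2i+AKTi library C. SEMA7A was also higher in HCC1937 than in HCC1395, by 1.49 ± 0.16 (adjusted p = 3.23e-08).

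Between HCC1937 and HCC1395 the receptors EPHB3 (-1.85 ± 0.08), NRP1 (-0.68 ± 0.11), NRP2 (-3.21 ± 0.21) and PLXNA2 (-1.38 ± 0.12) and the cues SEMA3C (-1.40 ± 0.13), SEMA4D (-0.48 ± 0.11) and SEMA5A (-2.35 ± 0.29) responded lower in HCC1937, with adjusted p of at most 0.00201. SEMA3D was at -6.72 ± 1.08, but its DMSO level in HCC1395 rests on 2 counts, so the size is not interpretable.

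Between HCC38 and HCC1937 the ephrin EFNB2 (1.29 ± 0.11), the receptors NRP1 (1.03 ± 0.11), NRP2 (1.54 ± 0.17) and PLXNA2 (1.76 ± 0.12) and the cue SEMA4D (0.48 ± 0.11) responded higher in HCC38, with adjusted p of at most 0.000989. Without HCC38 library C these were 1.24, 0.91, 1.39, 1.76 and 0.50.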

How the results depend on the processing

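Of 452 calls of a member in a comparison, 368 held under every alternative that gave a value, 84 were lost under at least 1, and none changed direction. The stricter filter gave a value for 433 of them and DESeq2 for 451. Leaving out 1 library changed the count of members called in the interaction, 6 with all libraries, to between 1 and 9, and in HCC38, 22 with all libraries, to between 14 and 26. The other 13 counts stayed within 1.5 times of their value under the alternatives run. The share of all genes called in each alternative is not given here. With a replicate block 27 members were called in HCC1937 (17 higher and 10 lower, in place of 31), 22 in HCC38, 34 with both inhibitors in HCC1395 and 6 in the interaction. Whether the letters mark pairs is not known. Same-letter libraries of different groups correlated in their deviations between -0.062 and 0.074 in HCC1395 (18 pairs), -0.084 and 0.109 in HCC38 (3 pairs) and -0.208 and -0.076 in HCC1937 (3 pairs). Libraries of different letters ranged from -0.123 to 0.074, -0.178 to 0.166 and -0.014 to 0.157 in that order. With so few libraries these values cannot settle whether there was pairing. TMM factors from each line's own fit, in place of those over all libraries, shifted log2 changes within a line by at most 0.031. Depth limits members with few counts: SEMA3D, SEMA6D, EPHA6 and EPHA7 had between 1 and 16 counts in the 3 DMSO libraries of HCC1395. Others were also low there, such as EPHA3 with 5 and EPHA5 with 0. The cause of lost calls was not tested.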

Other observations

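Of the Eph receptors too low to be tested in HCC1395, EPHA6 and EPHA7 had counts mainly where EZH2i was given, and others differed. EPHA10 had 0 counts in all with EZH2i+AKTi, 6 with EZH2i, 0 with AKTi and 6 with DMSO. EPHA8 had 9, 2, 2 and 1 in that order, and EPHA5 had 4, 9, 0 and 0. EPHA7 had 20, 12 and 15 counts with EZH2i+AKTi, 6, 9 and 9 with EZH2i and 1, 1 and 3 with AKTi, against 0, 1 and 0 with DMSO. EPHA6 had 14, 8 and 8 counts with EZH2i+AKTi, 4, 9 and 4 with EZH2i and 2, 2 and 0 with AKTi, against 1, 0 and 0 with DMSO. The ratio of pooled counts, scaled for library size, was 37.9 for EPHA7 (exact 95% counting interval 6.48 to 1530) and 24.2 for EPHA6 (4.02 to 987) with EZH2i+AKTi against DMSO. With EZH2i alone it was 21.3 (3.48 to 878) and 15.1 (2.37 to 632). These intervals cover counting error only. Ratios were formed only where DMSO held a few counts and the treated group clearly more. A high ratio is therefore set by that choice and is not a test of a rise.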
